A study of Homo sapiens with 2 samples.

Results

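The respiratory chain is built from the products of 2 genomes, and its genes are described here in islet-like cells made from human embryonic stem cells. Members were the genes whose symbol begins with MT-ND, MT-CO, MT-ATP, MT-CYB, NDUFA, NDUFB, NDUFC, NDUFS, NDUFV, SDHA, SDHB, SDHC, SDHD, UQCR, COX4, COX5, COX6, COX7, COX8 or ATP5, without the NDUFAF assembly factors, antisense and readthrough symbols and pseudogenes. This gave 104 of the 33694 genes in the count tables, of which 13 are encoded in the mitochondrial genome and 91 in the nucleus. The nuclear members comprised 37 subunits of complex I, 4 of complex II, 9 of complex III, 19 of complex IV and 16 of complex V, with NDUFA4 and NDUFA4L2 counted under complex IV, and 6 related genes (SDHAF1 to SDHAF4, ATP5S and ATP5SL).

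The cells were enhanced beta clusters (eBCs), islet-like aggregates formed again from differentiating cells that had been sorted for high GFP and that also hold alpha-like, delta-like and progenitor-like cells. They came from clone 2 of the iSOX9KO line, made in the Mel1-INS-GFP reporter of MEL-1 human embryonic stem cells, in which GFP is expressed from the insulin locus, and carrying Cas9 under doxycycline control together with SOX9 guides in the AAVS1 locus. Both libraries are of that 1 clone, so the untreated cells carry the same cassette. The cells of 1 library were given no doxycycline (label NO DOX), and those of the other received 2 ug/ml of doxycycline, starting on day 12 of differentiation (label PLUS DOX). The sort for GFP came after doxycycline had been started, and live cells of the dissociated eBCs were then sequenced as 1 10X Genomics library per condition. With 1 library per condition no difference between the libraries could be tested, and the 95% intervals given below hold counting error alone.

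The NO DOX-labelled library kept 21805 cells with a median of 13958 UMIs (unique molecular identifiers, each a count of 1 captured RNA molecule), and the PLUS DOX-labelled one 23116 cells with a median of 12667. The targeted gene SOX9 had 946 UMIs, or 2.998 per 1000000 UMIs (CPM), in the NO DOX-labelled library and 1147 UMIs, or 3.78 CPM, in the PLUS DOX-labelled one. SOX9 RNA was thus not lower where the label says doxycycline was given. The study readily detected SOX9 in its duct or progenitor cells and hardly in endocrine cells. Duct-like cells here numbered 152 and 178. In this line the study measured the loss of SOX9 by cutting of the locus and by protein, and UMIs measure neither. This value alone therefore cannot tell which library received doxycycline. The study's gene list by treatment places NDUFB1 under no doxycycline and NDUFA13 under doxycycline, the reverse of where the labels put their higher levels here. The study also found larger fractions of alpha-like, delta-like and beta cell progenitor cells with doxycycline. Here the NO DOX-labelled library held more alpha-like and delta-like cells (5143 and 4203 alpha-like, 2635 and 1937 delta-like). Progenitor-like cells were nearly equal in number (5310 and 5343). These are counts among the 21805 and 23116 cells kept. It is therefore uncertain which library received doxycycline, and every sign given between the libraries holds for their labels only. The libraries shared 369 barcodes, 141 of them among the cells kept. Cells were clustered without the members among the variable genes and named from markers that the study listed for these same libraries, and the named cells were 330 duct-like, 885 proliferating progenitor-like, 4572 delta-like, 9346 alpha-like, 10653 beta cell progenitor-like and 16810 beta-like. A further 2325 cells, of low depth (1979 UMIs at the median) and with 52.5% of UMIs from mitochondrial genes, had no name. Beta-like cells numbered 6953 in the NO DOX-labelled and 9857 in the PLUS DOX-labelled library, and progenitor-like cells 5310 and 5343. The class mix thus differed between the libraries, and levels over all cells depend on it.

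Mitochondria make most of the ATP of a cell by passing electrons from NADH and succinate along complexes I to IV, of which all but complex II pump protons across the inner membrane, and by letting the protons return through complex V, the ATP synthase. The mitochondrial genome encodes core subunits of every complex except complex II, and all other subunits are made in the cytosol and imported. In beta cells the ATP made from glucose closes potassium channels and so triggers the release of insulin. Because UMIs count molecules from their 3′ end, levels of different genes were compared in CPM without a correction for length.

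The mitochondrial mRNAs are read from a compact circle of 16569 bases, and some of them overlap. MT-ATP8 and MT-ATP6, subunits of the ATP synthase, share 46 bases on the plus strand of the mitochondrial chromosome (GRCh38, chrM:8527-8572), and MT-ND4L and MT-ND4, subunits of complex I, share 7 bases (chrM:10760-10766). The stretches around the shared bases, which stand in capitals, are shown because UMIs of such a pair cannot be assigned to 1 gene wherever a read lies in them:
MT-ATP8 and MT-ATP6, chrM:8515-8584: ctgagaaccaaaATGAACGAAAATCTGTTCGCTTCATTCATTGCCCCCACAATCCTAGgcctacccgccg
MT-ND4L and MT-ND4, chrM:10748-10778: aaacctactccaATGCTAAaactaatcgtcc
The values of these 4 genes are therefore uncertain as to the split within each pair. MT-ND6 is encoded on the minus strand (chrM:14149-14673), next to MT-ND5 on the plus strand, and the strand setting of the counting is not given in the sources used here, so reads at their border are uncertain.

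Nuclear respiratory genes are known for promoters that bind NRF1, ETS factors such as GABPA, and YY1. RefSeq promoters on GRCh38.p14, from 250 bases before to 50 bases after the start, were matched for 72 of the 91 nuclear members and searched on both strands. The NRF1 motif (GCGCA, any base, then GCGC) stood in 18 of them (25%), compared with 8.69% of 15101 promoters of protein-coding genes and 12.8% of the 8285 whose gene reached 5 CPM in a library. The ETS motif CCGGAAG stood in 29.2%, compared with 14.4% and 20.7%. The YY1 motif AAGATGGCG stood in 11.1%, compared with 2.83% and 4.56%. In promoters of mitochondrial and cytosolic ribosome genes, the ETS motif stood in 41.2% and 34.3%, and the YY1 motif in 19.1% and 8.96%. Both motifs were thus more frequent in the mitochondrial ribosome list than in the members, and the ETS motif in the cytosolic one too. The NRF1 motif stood in 8 of 68 and 7 of 67 of those promoters, smaller shares than in the members. The NRF1 motif was found in 4 of 7 promoters of complex III, 2 of 3 of complex II, 6 of 32 of complex I, 3 of 11 of complex V and 1 of 14 of complex IV. A match describes letters in this window and is not a bound site. The following stretches, with the NRF1 motif or its reverse complement in capitals, belong to 3 members that were among the furthest apart between beta-like and progenitor-like cells:
UQCRC1, chr3:48609654-48609723, minus strand: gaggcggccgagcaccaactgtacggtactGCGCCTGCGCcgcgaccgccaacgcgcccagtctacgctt
SDHD, chr11:112086733-112086802, plus strand: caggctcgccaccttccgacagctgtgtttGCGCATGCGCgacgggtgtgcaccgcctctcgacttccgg
NDUFA12, chr12:95003774-95003843, minus strand: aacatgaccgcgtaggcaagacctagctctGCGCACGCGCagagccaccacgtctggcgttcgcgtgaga
UQCRC1 stood lower in beta-like cells, SDHD and NDUFA12 higher (values below). These 3 are shown because they carry the motif. Other members at least 1.5-fold apart between these classes (COX5A, COX5B, COX7A2L, NDUFS1, NDUFS7, NDUFS8 and NDUFV1) had no match to it in this window. NDUFA4 and ATP5B were also that far apart but had no matched promoter, so they were not searched.

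Mitochondrially encoded mRNAs took 8.60% of all UMIs in the NO DOX-labelled library and 9.38% in the PLUS DOX-labelled one, while the 91 nuclear members together took 2.36% and 2.44%. The 13 mitochondrial mRNAs thus outnumbered all nuclear members combined. Progenitor-like cells had the highest mitochondrial share of the named classes, with 10.1% and 10.5%, and delta-like cells the lowest, with 6.35% and 7.10%. Between them lay beta-like cells with 7.53% and 8.30%, alpha-like cells with 8.45% and 9.97%, proliferating progenitor-like cells with 8.55% and 9.80%, and duct-like cells with 6.96% and 7.37%. The order depends on the total. Without hormone UMIs, the mitochondrial mRNAs stood at 110062 and 113113 CPM in progenitor-like cells and 107943 and 124632 CPM in alpha-like cells, which were thus above them in the PLUS DOX-labelled library, and delta-like cells, at 101204 and 108858 CPM, were above beta-like cells, at 97428 and 106826 CPM. Duct-like cells were then lowest, at 71147 and 75185 CPM. With all UMIs, the range over the 6 classes exceeded the difference between the libraries within each of them.

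With all UMIs, the nuclear members varied less between classes, apart from delta-like cells. They took 2.46% and 2.44% of UMIs in beta-like cells, 2.53% and 2.67% in progenitor-like cells, 2.46% and 2.61% in alpha-like cells, 2.51% and 2.54% in proliferating progenitor-like cells and 2.57% and 2.60% in duct-like cells. In delta-like cells they took 1.59% and 1.66%. The hormone mRNAs INS, GCG, SST, PPY and IAPP with TTR took 37.3% and 34.8% of UMIs in delta-like cells, 22.7% and 22.3% in beta-like, 21.8% and 20.03% in alpha-like, and 8.08% and 6.77% in progenitor-like cells. CPM of every other gene depends on that share, so class comparisons below are also given with mitochondrial and hormone UMIs left out of the total, an alternative added after seeing the data. On that total, in a finer clustering (below), the nuclear members stood at 28090 and 28556 CPM in the delta-like cluster of 4363 cells. The duct-like cluster of 331 cells was about as low, at 28391 and 28685 CPM, so delta-like cells did not then stand alone. Mitochondrially encoded UMIs per nuclear member UMI, a ratio that does not depend on the total, were 3.07 and 3.40 in beta-like cells, 3.99 and 3.95 in progenitor-like cells, 3.44 and 3.82 in alpha-like cells, 3.999 and 4.27 in delta-like cells, 3.41 and 3.85 in proliferating progenitor-like cells and 2.70 and 2.83 in duct-like cells. On this scale beta-like cells were below progenitor-like and delta-like cells in both libraries, and duct-like cells were lowest.

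**Figure D1:**
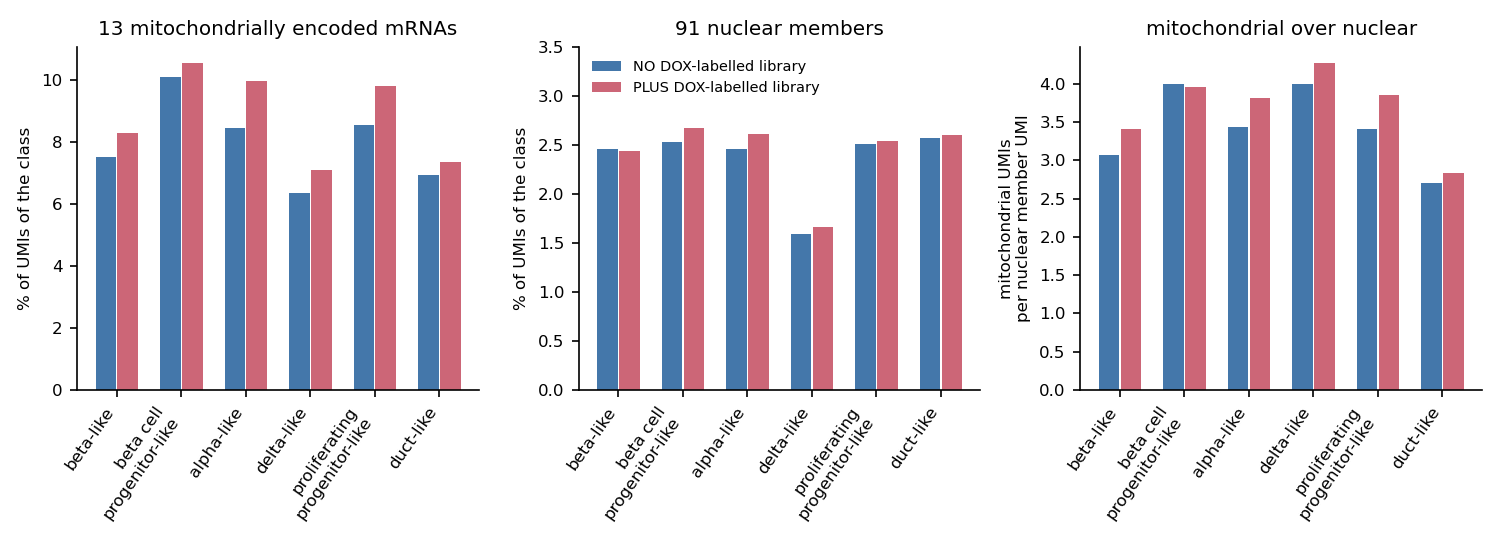
Bars give, for each named class and library, the percent of UMIs from the 13 mitochondrially encoded mRNAs (left), the percent from the 91 nuclear members (middle) and the ratio of the 2 sums (right). The delta-like bars are lowest in the left and middle panels (6.35% and 7.10%, 1.59% and 1.66%), and 5 of the 6 classes have a higher ratio in the PLUS DOX-labelled library, progenitor-like cells being the exception.

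Of the mitochondrially encoded mRNAs, the 3 of complex IV made up the largest sum, with 40449 and 42846 CPM. MT-CO2, which carries the copper site that takes electrons from cytochrome c, stood at 19604 CPM in the NO DOX-labelled library and 21771 CPM in the PLUS DOX-labelled one, the highest of the 13. MT-CO1, the catalytic subunit with the oxygen-reducing centre, stood at 13162 and 13025 CPM, and MT-CO3 at 7683 and 8049 CPM. MT-CYB, the only mitochondrial subunit of complex III, stood at 9671 and 11071 CPM.

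The 7 mitochondrial subunits of complex I form its proton-pumping membrane arm and had unequal counts. The overlapping MT-ND4L and MT-ND4 may not be counted as separate molecules, so their unequal counts need not be unequal RNA levels. MT-ND4 stood at 9116 and 9097 CPM and MT-ND3 at 7888 and 8435 CPM. MT-ND2 stood at 3654 and 3997 CPM, MT-ND1 at 2765 and 3149 CPM and MT-ND5 at 2505 and 2748 CPM. MT-ND4L stood at 810.3 and 763.9 CPM and MT-ND6, the only one encoded on the minus strand, at 206.5 and 297.0 CPM. Of the ATP synthase subunits, MT-ATP6, part of the proton channel, stood at 8741 and 11215 CPM, and MT-ATP8, in the same transcript, had the lowest count of the 13, at 156.4 and 169.1 CPM.

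Among nuclear members, ATP5E, the epsilon subunit of the ATP synthase, was the most abundant at 2439 and 2524 CPM in the NO DOX- and PLUS DOX-labelled libraries. Complex II, the succinate dehydrogenase, was the least abundant complex, with 152 and 156 CPM summed over its 4 subunits, compared with 7532 and 7766 CPM for the 37 nuclear subunits of complex I, 2955 and 3041 CPM for complex III, 5851 and 6077 CPM for complex IV and 6973 and 7188 CPM for complex V. The order of these sums follows the number of subunits in part, since complex II has the fewest. The member rule also leaves out some subunits by their symbols, USMG5 (443 and 485 CPM) and C14orf2 (381 and 430 CPM) of complex V and CYC1 of complex III. The order of complexes I and V therefore holds for the members only.

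Several subunits of complex IV exist as isoforms of which 1 is found in most tissues and another in muscle, lung, testis or under low oxygen. Here the widespread form held nearly all UMIs of each set. COX4I1 stood at 578 and 601 CPM, while COX4I2, known from lung and from cells under hypoxia, had 0 UMIs in both libraries, which allows up to 0.00951 and 0.00988 CPM. COX6A1 stood at 453 and 471 CPM, and the muscle form COX6A2 had 24 and 26 UMIs. COX7A2 stood at 602 and 607 CPM and the supercomplex factor COX7A2L at 248 and 233 CPM, while the muscle form COX7A1 had 0 UMIs in both libraries.

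The remaining pairs were as unequal. COX6B1 stood at 470 and 492 CPM and COX6B2, known from testis, had 41 and 69 UMIs. COX7B stood at 325 and 351 CPM and COX7B2 had 14 and 9 UMIs, and COX8A stood at 577 and 578 CPM while COX8C had 36 and 35 UMIs. These counts stand among 315562543 and 303563172 UMIs, and the part of free RNA in them was not tested.

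NDUFA4, a subunit of complex IV that was first assigned to complex I, stood at 210 and 230 CPM, and its hypoxia-induced relative NDUFA4L2 had 363 and 320 UMIs. The 3 genes for the identical c subunit of the ATP synthase were all well counted, ATP5G2 at 467 and 473 CPM, ATP5G3 at 320 and 317 CPM and ATP5G1 at 306 and 292 CPM. UQCRH stood at 495 and 498 CPM, and its near-identical copy UQCRHL had 971 and 1142 UMIs. ATP5L2, a near copy of ATP5L, had 437 and 360 UMIs, and the counts of both copies are uncertain because reads could be split between near-identical sequences. The 9 members without a level of 5 CPM in either library (UQCRHL, NDUFA4L2, ATP5L2, COX6B2, COX8C, COX6A2, COX7B2, COX4I2 and COX7A1) were left out of the counts between the libraries as a whole, which leaves 95 of the 104 members, 13 mitochondrial and 82 nuclear.

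The comparison of the libraries asks which members differed with doxycycline, within the uncertainty of the labels given above. Mitochondrially encoded mRNAs were higher in the PLUS DOX-labelled library, by a log2 ratio of 0.13 (0.125 to 0.126) in their sum, while the sum of the nuclear members differed by 0.05, and by 0.03 without hormone UMIs in the total. MALAT1, a nuclear-retained RNA stood at 21796 CPM in the NO DOX-labelled and 23956 CPM in the PLUS DOX-labelled library, a log2 ratio of 0.14, and was higher in the latter in 12 of 14 clusters of the finer clustering. It moved with the mitochondrial sum between the libraries, and its part in that difference was not tested. A member was counted as higher or lower where it was at least 1.2-fold apart, a rule of size and not a test. By this rule 3 of the 95 members were higher, MT-ND6, MT-ATP6 and NDUFB1, and 0 were lower. Of the 10444 genes with 5 CPM in a library, 1.94% were higher and 3.17% lower by the same rule.

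MT-ND6 stood at 206.5 CPM in the NO DOX-labelled library and 297.0 CPM in the PLUS DOX-labelled one, a log2 ratio of 0.52 (0.51 to 0.54), and it was higher in the PLUS DOX-labelled library in every named class. MT-ATP6 had a log2 ratio of 0.36 (0.36 to 0.36). It ranged from 6891 CPM in delta-like to 9439 CPM in progenitor-like cells of the NO DOX-labelled library, and from 9101 CPM in delta-like to 12420 CPM in alpha-like cells of the PLUS DOX-labelled one. Both genes have a neighbour from which their reads may not be fully separable, as shown above. NDUFB1 (ENSG00000183648, chromosome 14 from 92116122 to 92121917), an accessory subunit of the membrane arm of complex I, stood at 374.7 CPM (372.5 to 376.8) and 455.1 CPM (452.7 to 457.5), a log2 ratio of 0.28 (0.27 to 0.29).

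NDUFB1 was higher in the PLUS DOX-labelled library in all 6 classes. It stood at 381.4 and 439.6 CPM in beta-like cells, 398.9 and 497.3 CPM in progenitor-like cells and 413.3 and 538.3 CPM in alpha-like cells. In delta-like cells it stood at 224.2 and 275.3 CPM, in proliferating progenitor-like cells at 498.0 and 593.2 CPM and in duct-like cells at 290.7 and 366.8 CPM. The study had listed NDUFB1 on these libraries with the opposite treatment, so this is no independent evidence, and its sign with respect to doxycycline is uncertain. Without hormone UMIs in the total the log2 ratio of NDUFB1 was 0.260, just short of 1.2-fold (0.263), and 0 nuclear members then passed.

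The other nuclear members differed little between the libraries. Over the 82, the median log2 ratio was 0.04, beside -0.01 for all genes, and 56 of 82 were above 0. In complex I the range ran from NDUFA13 at -0.18 (193.9 and 171.6 CPM), an accessory subunit also named GRIM-19 and likewise listed by the study on these libraries with the opposite treatment, to NDUFB1. In complex II it ran from SDHA, the flavoprotein, at -0.02 to SDHB, the iron-sulfur subunit, at 0.05. In complex III it ran from UQCRC1, a core subunit, at -0.07 to UQCRB at 0.09, and in complex IV from COX7A2L at -0.09 to NDUFA4 at 0.13. In complex V it ran from ATP5G1 at -0.07 (306 and 292 CPM) to ATP5I, the e subunit, at 0.21 (518.7 and 601.3 CPM). All of these but NDUFB1 were within 1.2-fold. NDUFA4 was lower in the PLUS DOX-labelled library within beta-like and duct-like cells and higher within progenitor-like and delta-like cells. In a finer clustering (below) it was also higher there in the larger alpha-like cluster (126.7 and 141.6 CPM) and the proliferating progenitor-like cluster (150.4 and 164.1 CPM). The value of NDUFA4 over all cells depends on the class mix, whose part was not tested.

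**Figure D2:**
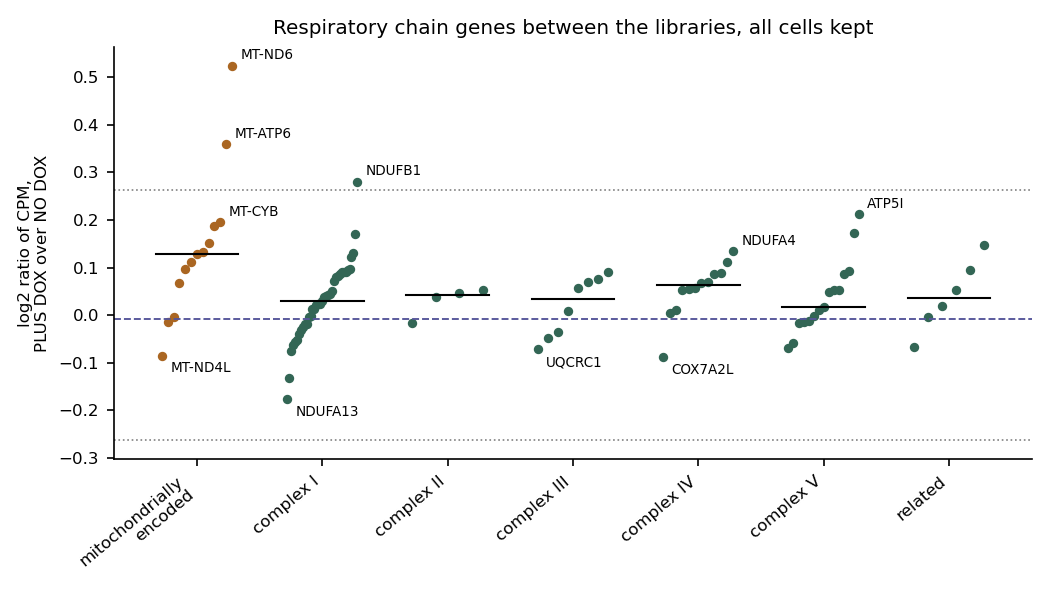
Each point is 1 of the 95 members with at least 5 CPM, placed by its log2 ratio of CPM in the PLUS DOX-labelled library over the NO DOX-labelled one and grouped by genome and complex. Black bars are group medians, the dashed line the median of all genes (-0.01) and the dotted lines 1.2-fold; MT-ND6, MT-ATP6 and NDUFB1 lie past the upper line.

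Within classes the sum of mitochondrial mRNAs was higher in the PLUS DOX-labelled library by a log2 ratio of 0.24 in alpha-like, 0.20 in proliferating progenitor-like, 0.16 in delta-like, 0.14 in beta-like, 0.08 in duct-like and 0.06 in progenitor-like cells. The sum of nuclear members ranged from -0.01 in beta-like to 0.09 in alpha-like cells, and in duct-like cells its interval (-0.00 to 0.03) included 0. Alpha-like cells thus had the largest difference of the 6 classes in both sums.

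MT-ATP6 and MT-ND6 passed 1.2-fold in each of the 6 classes. In beta-like cells they were the only members that passed, where 2.05% of all genes were higher and 3.39% lower. In progenitor-like cells NDUFB1 passed too (3.49% of all genes higher, 2.9% lower), and in delta-like cells NDUFB1 and SDHAF4 (5.31% and 2.61%). In alpha-like cells MT-CO2, MT-CYB, MT-ND5, ATP5I and NDUFB1 were added, so that 5 of 13 mitochondrial and 2 of 82 nuclear members were higher (4.8% and 3.04% of all genes). In these 4 classes 0 members were lower.

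The proliferating progenitor-like and duct-like classes are small and gave more differences in all genes. In proliferating progenitor-like cells 4 of 13 mitochondrial members and 1 of 82 nuclear members (ATP5SL) were higher and NDUFA7 lower, where 9.64% of all genes were higher and 10.7% lower. In duct-like cells 5 of 83 nuclear members were higher and 4 lower, below the 21.5% and 24.2% of all genes. The 83 include UQCRHL, 1 of the 5 that were higher, which reached 5 CPM in the PLUS DOX-labelled library of this class alone (4.02 and 5.90 CPM) and has uncertain counts.

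The make-up of the mitochondrial mRNAs also differed between the libraries, a measure that leaves the nuclear genes out. MT-ATP6 made up 10.2% of the 13 mRNAs in the NO DOX-labelled library and 12.0% in the PLUS DOX-labelled one, and MT-ND6 0.240% and 0.317%. MT-CO1 went the other way with 15.3% and 13.9%, as did MT-ND4 with 10.6% and 9.70% and MT-ND4L with 0.943% and 0.814%. These 5 mRNAs had the same direction in 6 of 6 classes, and the other 8 did not. Since the classes share their libraries, 6 classes are not 6 replicates of a condition. The share of MT-ATP6 was 10.8% and 12.98% in the unnamed cells as well, so the difference was present in cells of low depth. MT-ATP6 and MT-ND4L each belong to a pair of overlapping genes, and MT-ATP8, the partner of MT-ATP6, made up 0.182% and 0.180%. The part of the split of reads within the pairs in these differences was not tested.

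**Figure D3:**
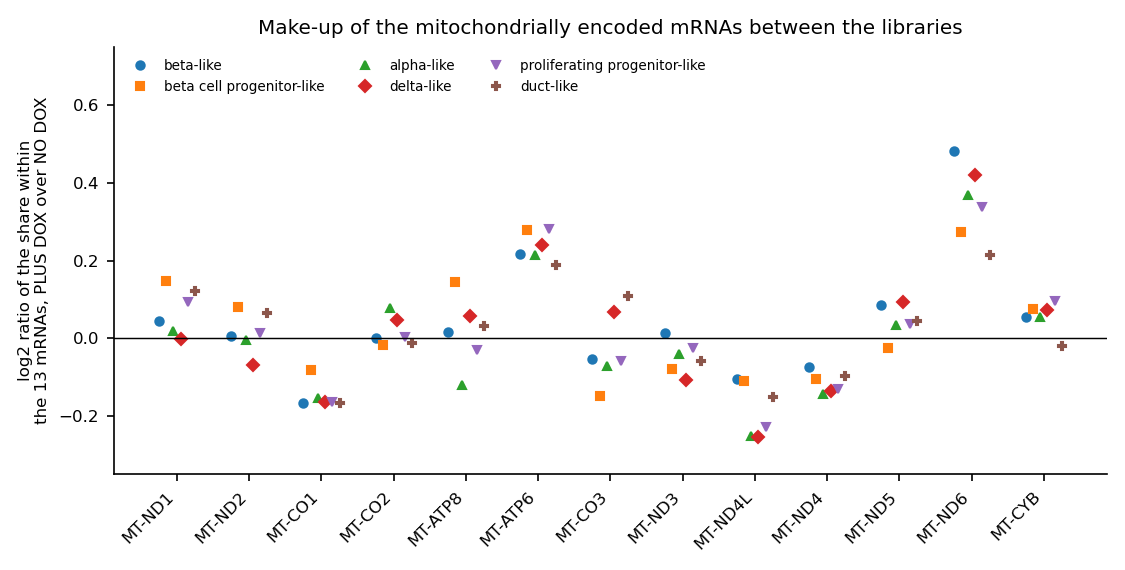
For each mitochondrially encoded mRNA, in genome order, symbols give the log2 ratio (PLUS DOX over NO DOX) of its share within the 13 mRNAs in each of the 6 named classes. MT-ATP6 and MT-ND6 lie above 0 and MT-CO1, MT-ND4L and MT-ND4 below 0 in all 6 classes.

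The comparison of beta-like with progenitor-like cells asks which members differ between the insulin-rich cells and the cells that express progenitor markers such as FEV and TPH1. The 13 mitochondrial mRNAs stood lower in beta-like cells, with a log2 ratio of -0.38 in their sum (-0.43 and -0.35 in the NO DOX- and PLUS DOX-labelled libraries). The exception was MT-ND6, at -0.02, which was lower in the NO DOX-labelled library (-0.22) and higher in the other (0.07). By the rule of size 4 of 13 were at least 1.5-fold lower, among them the overlapping pair MT-ND4L and MT-ND4. The sum of the nuclear members differed by -0.09 (-0.04 and -0.13). The finer clustering gave progenitor-like clusters of 8389 and 1253 cells, which do not hold all 10653 cells of the class. Against these clusters the nuclear sum of beta-like cells was at -0.05 and -0.50. Over all genes the median log2 ratio was -0.59, so that 50.2% of 10978 genes were at least 1.5-fold lower and 6.56% higher by this rule. Of the 82 nuclear members 8 were lower and 4 higher, with a median of -0.12.

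The directions of both sums depend on the scale. The mitochondrial sum was at -0.12 without hormone UMIs in the total, and it reversed to 0.21 when scaled to the median ratio of all genes. With mitochondrial and hormone UMIs left out of the total, nuclear members stood higher in beta-like cells, by 0.16 in their sum and 0.12 in their median, and all genes had a median of -0.35. Against the progenitor-like clusters of 8389 and 1253 cells the sum was then at 0.20 and -0.15, so the smaller cluster had the opposite direction. Then 6 of 82 were at least 1.5-fold higher and 2 lower, while 9.62% and 36% of all genes were. Such a change of total shifts every gene by the same amount, so the place of the nuclear members above the median gene is the same with either.

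The mitochondrial mRNAs that stood lowest in beta-like cells were all subunits of complex I. MT-ND4L had a log2 ratio of -0.99, with 543.6 and 557.3 CPM in beta-like and 1111 and 1073 CPM in progenitor-like cells. MT-ND2 was at -0.90, MT-ND4 at -0.85 and MT-ND5 at -0.74. With all UMIs, the mitochondrial subunits of complex I summed to -0.61, compared with -0.24 for complex III, -0.27 for complex IV and -0.27 for complex V, so the difference was not even over the mitochondrial mRNAs. Without hormone UMIs, where all 13 summed to -0.12, each of these is raised by the same amount. Complexes III to V then differed little between the classes, and the sum of complex I was still lower in beta-like cells. Within the 13 mRNAs, where the total plays no part, the share of MT-ND4L was higher in progenitor-like cells by a log2 ratio of 0.61 and 0.60, that of MT-ND2 by 0.49 and 0.57, that of MT-ND4 by 0.48 and 0.45 and that of MT-ND5 by 0.43 and 0.32. The share of MT-ND6, on the other strand, was lower there (-0.20 and -0.41), and so was that of MT-ND3 (-0.17 and -0.27). The mitochondrial mRNAs of complex I thus did not all share the direction of their sum. In all, 6 of the 13 shares were higher and 7 lower in progenitor-like cells in both libraries.

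Of the nuclear members, NDUFA4 (ENSG00000189043, chromosome 7 from 10931943 to 10940153) stood highest in beta-like over progenitor-like cells, at a log2 ratio of 0.99 (0.96 to 1.01). It stood at 309.2 and 301.2 CPM in beta-like and 150.7 and 157.6 CPM in progenitor-like cells. COX5A (ENSG00000178741, chromosome 15 from 74919791 to 74938083), a nuclear subunit of complex IV, was at 0.62, with 743.4 and 704.4 CPM in beta-like and 473.0 and 465.5 CPM in progenitor-like cells. SDHD, a membrane anchor of complex II, was also at 0.62 (32.19 and 31.60 CPM, 20.06 and 21.44 CPM), NDUFA12, an accessory subunit of complex I, at 0.60 and NDUFC2, another, at 0.44, short of 1.5-fold. NDUFA4 and COX5A were on lists of beta cell markers that the study drew from these libraries, and so are not independent of the class names.

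UQCRC1 (ENSG00000010256, chromosome 3 from 48599002 to 48610976), which encodes a core protein of complex III, had the lowest ratio of the nuclear members, at -1.47 (-1.50 to -1.44). It stood at 70.70 and 71.19 CPM in beta-like and 200.8 and 192.1 CPM in progenitor-like cells. NDUFS1, the largest iron-sulfur subunit of complex I, was at -1.03, with 49.55 and 51.68 CPM in beta-like and 100.8 and 106.0 CPM in progenitor-like cells. NDUFV1, which binds NADH, was at -0.79, ATP5B, the catalytic beta subunit of the ATP synthase, at -0.74 and COX5B at -0.67. COX7A2L at -0.64, NDUFS7 at -0.61 and NDUFS8 at -0.60 also passed. Without mitochondrial and hormone UMIs in the total UQCRC1 (-1.23) and NDUFS1 (-0.78) still passed 1.5-fold, and NDUFA4 was at 1.23 and COX5A at 0.86.

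The complex I members that were lower, NDUFS1, NDUFS7, NDUFS8 and NDUFV1, are all nuclear core subunits, the group that holds the flavin and the iron-sulfur clusters. The 7 nuclear core subunits had a median log2 ratio of -0.60 with 6 of 7 below 0, near the values of all genes (a median of -0.59, with 8938 of 10978 below 0 and 50.2% at least 1.5-fold lower), and the other 30 nuclear subunits a median of -0.10 with 1 higher and 0 lower by 1.5-fold. This grouping was chosen after the values were seen and is a description. Without mitochondrial and hormone UMIs the medians were -0.36 and 0.14, beside -0.35 for all genes, of which 36% were at least 1.5-fold lower and 9.62% higher. Then 1 of the 7 was lower, and 2 of the 30 were higher.

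**Figure D4:**
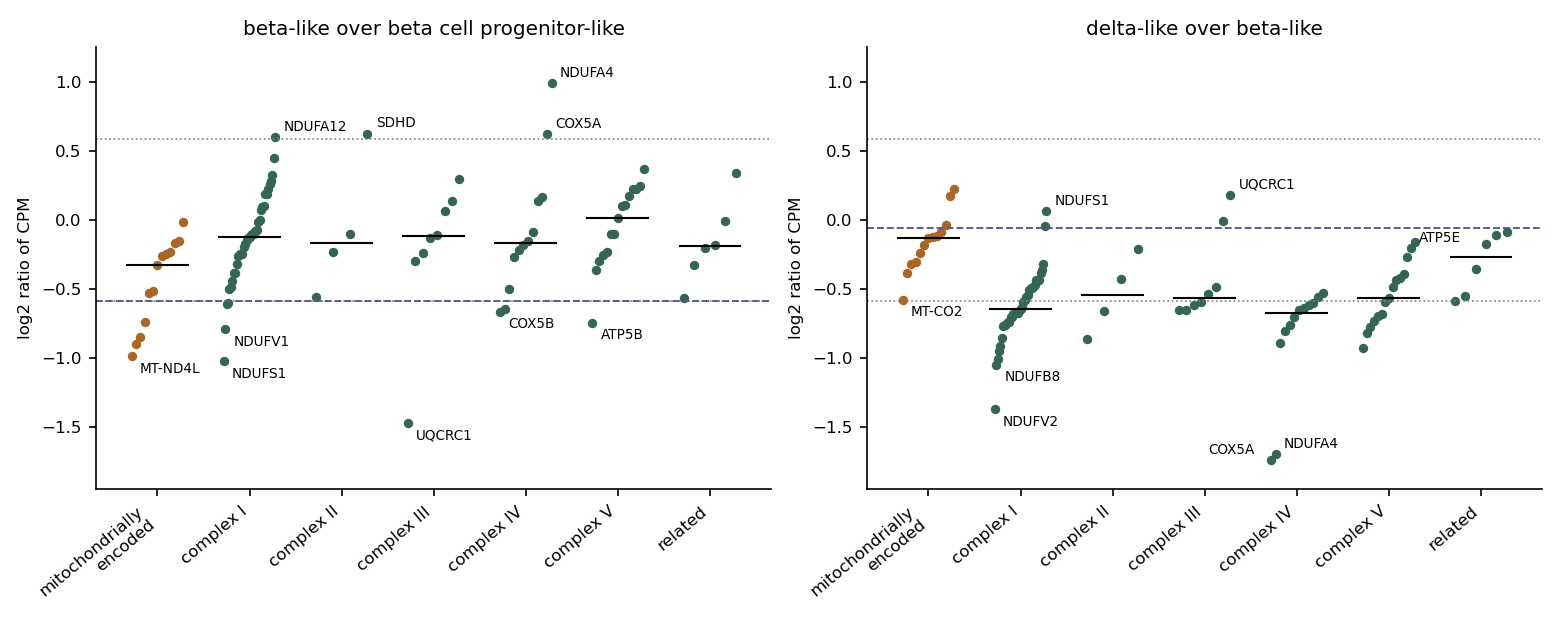
Points are members with at least 5 CPM, placed by their log2 ratio of CPM, both libraries summed, in beta-like over beta cell progenitor-like cells (left) and delta-like over beta-like cells (right). Black bars are group medians, dashed lines the median of all genes (-0.59 left, -0.06 right) and dotted lines 1.5-fold, the lower of which coincides with the dashed line on the left; in the right panel 45 of 82 nuclear members are past the lower line.

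Delta-like cells stood apart from beta-like cells in the level of most nuclear members. The sum had a log2 ratio of -0.60 (-0.63 and -0.55 in the NO DOX- and PLUS DOX-labelled libraries), 45 of 82 nuclear members were at least 1.5-fold lower and 0 higher, where 15.2% of all genes were lower and 11% higher. The median of the nuclear members was -0.60, beside -0.06 for all genes. Of the mitochondrial mRNAs, 0 of 13 passed, with a median of -0.13. Their sum was 66498 CPM in delta-like and 79507 CPM in beta-like cells, and 104372 and 102547 CPM without hormone UMIs in the total, so its direction changed with the total. Complex IV had 10 of 12 nuclear members lower, complex I 21 of 37, complex III 4 of 8, complex V 7 of 15 and complex II 2 of 4.

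COX5A was at -1.74, with 209.4 and 227.0 CPM in delta-like cells, against 743.4 and 704.4 CPM in beta-like cells. NDUFA4 was at -1.69, with 90.99 and 99.05 CPM in delta-like cells. NDUFV2, a core subunit of complex I, was at -1.37 and NDUFB8, an accessory one, at -1.05. The exceptions were UQCRC1 at 0.18 and NDUFS1 at 0.06, the members that were lowest in beta-like over progenitor-like cells. Without mitochondrial and hormone UMIs in the total the sum had a log2 ratio of -0.31, and 9 members remained past 1.5-fold, ATP5G1, COX5A, COX5B, NDUFA12, NDUFA4, NDUFA5, NDUFB8, NDUFC2 and NDUFV2, with 7.42% of all genes lower and 23.8% higher. The nuclear median was then -0.31 beside 0.23 for all genes.

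In alpha-like over beta-like cells the mitochondrial mRNAs were above 0 in 13 of 13, with a median of 0.25 and a range from 0.06 to 0.66, and 1 of them, MT-ND4L, passed 1.5-fold, with 872.3 and 865.0 CPM against 543.6 and 557.3 CPM. Of the nuclear members, NDUFA13 at 0.63 (262.0 and 243.2 CPM, against 175.2 and 153.7 CPM) and COX8A at 0.59 were higher, and NDUFA4 at -1.17, COX5A at -0.84 and NDUFV2 at -0.69 were lower, 2 and 3 of 82, where 13.2% of all genes were higher and 10.1% lower. The same nuclear members passed without mitochondrial and hormone UMIs, where 13% of all genes were higher and 10.3% lower. Over the 82 nuclear members the median was -0.01. NDUFA4, COX5A and NDUFV2 were thus higher in beta-like than in both alpha-like and delta-like cells.

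In proliferating progenitor-like cells 3 of 82 nuclear members, SDHA, COX8A and UQCRC1, were higher than in the endocrine classes and 0 lower, where 22.8% of all genes were higher and 6.2% lower. With mitochondrial and hormone UMIs left out 0 were higher and NDUFA4 was lower, at -0.61, where 17.9% of all genes were higher and 8.91% lower. In duct-like cells NDUFA4 stood at 842.9 and 813.5 CPM, the highest of the 6 classes, a log2 ratio of 1.93 (1.89 to 1.97) over the endocrine classes. ATP5C1, ATP5G2, ATP5H, ATP5O and NDUFS5 were also higher, and COX5A, NDUFA5, NDUFA7, NDUFS1 and SDHAF1 lower, 6 and 5 of 83 nuclear members, where 30.9% of all genes were higher and 26% lower. With mitochondrial and hormone UMIs left out, NDUFA4 at 1.58 alone was higher and 18 members were lower, where 21.5% of all genes were higher and 37.2% lower. With all UMIs, the nuclear members had a median of 0.12 in duct-like over endocrine cells, beside 0.09 for all genes. Without mitochondrial and hormone UMIs it changed sign to -0.23, with 64 of 83 below 0, beside -0.26 for all genes. The mitochondrial mRNAs had a median of -0.32 with all UMIs, with 11 of 13 below 0 and 1 of them, MT-ND5, at least 1.5-fold lower, at -0.69. COX5A and NDUFA4, both subunits of complex IV, had different orders over the classes. COX5A stood highest in beta-like and lowest in delta-like cells, and NDUFA4 highest in duct-like and lowest in delta-like cells.

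A finer clustering gave Beta-1-like and Beta-2-like clusters, a metallothionein-led one, and a larger one of 5979 cells that did not reach a name. The markers of this larger cluster were mixed. Those of Beta-2 had the highest mean log2 fold (0.61), but its 10 leading genes held 5 markers of Beta-1 (IAPP, LOXL4, PCP4, TLE4 and NPPC) and 2 of Beta-2. COX5A was the only member at least 1.5-fold apart between Beta-1-like and Beta-2-like cells, at -1.06 (-1.07 to -1.04), with 499 CPM in Beta-1-like and 1038 CPM in Beta-2-like cells, where 5.92% of all genes were higher and 12.9% lower. COX5A was a marker of Beta-2 cells in the study's list from these libraries, though members were not used here to build the clusters. NDUFA4 stood at 312 and 277 CPM. In 1332 cells of a metallothionein-led cluster, whose nearest markers were those of Beta-1, COX5A stood at 593 CPM. Set against the same Beta-2-like cells, COX5A was the only member past 1.5-fold, at -0.81, where 5.75% of all genes were higher and 24.8% lower, and both comparisons rest on the high level in Beta-2-like cells. Without mitochondrial and hormone UMIs in the total the ratios of COX5A were -0.97 and -0.71. The summed nuclear members were 23943 CPM in Beta-1-like, 25052 CPM in Beta-2-like and 24779 CPM in metallothionein-led cells. In the unnamed cluster of 5979 cells COX5A stood at 663 CPM, between Beta-1-like and Beta-2-like cells, and the nuclear members summed to 24228 CPM.

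Clusters at the extremes of the mitochondrial share were of low depth. An alpha-like cluster (1100 cells, 2817 UMIs at the median) had 1.44% mitochondrial UMIs, and MALAT1 stood there at 1384 CPM, compared with 23896 CPM and 9.31% in the larger alpha-like cluster of 8065 cells. Its nuclear members summed to 35653 CPM, compared with 24871 CPM, and without mitochondrial and hormone UMIs to 48346 CPM, compared with 35754 CPM. In the mitochondrial RNA-led cluster (2369 cells, 1994 UMIs at the median) mitochondrial mRNAs took 50.3% of UMIs, MALAT1 stood at 33190 CPM and the nuclear members at 10816 CPM. That low nuclear level depends on the total. Without mitochondrial and hormone UMIs it was 27550 CPM, near the 28282 CPM of the delta-like cluster of 4363 cells. In the larger alpha-like cluster alone the mitochondrial share was 8.64% in the NO DOX-labelled library and 10.2% in the PLUS DOX-labelled one, so the difference between the libraries in alpha-like cells was present without the cluster low in MALAT1.

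**Figure D5:**
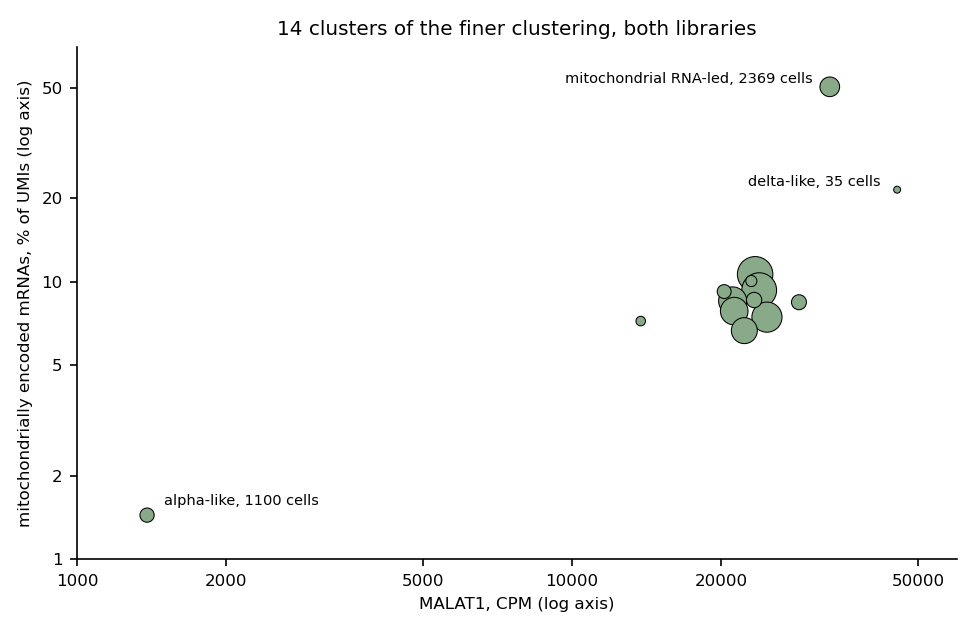
Circles are the 14 clusters of the finer clustering, both libraries summed, placed by their level of MALAT1 (CPM, log axis) and the percent of UMIs from the 13 mitochondrial mRNAs (log axis), with area by number of cells. The alpha-like cluster of 1100 cells lies at 1384 CPM and 1.44%, the mitochondrial RNA-led cluster at 33190 CPM and 50.3%, and the other clusters of over 100 cells between them.

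Over the 12 sums of 6 classes in 2 libraries, the members whose log2 level was most like the summed nuclear members were NDUFB10 (Pearson r 0.98), NDUFA2 (0.98) and COX7B (0.98). NDUFB10, an accessory subunit of complex I, stood between 179.6 and 311.0 CPM, lowest in delta-like cells of the NO DOX-labelled library and highest in progenitor-like cells of the PLUS DOX-labelled one. The summed mitochondrial and summed nuclear members had an r of 0.64 over the same 12 sums. Over single cells with at least 5000 UMIs the sign was the other way, at -0.24 and -0.19 in the NO DOX- and PLUS DOX-labelled libraries. There the nuclear share was taken without mitochondrial and hormone UMIs. Within beta-like cells r was -0.31 and -0.18, within progenitor-like cells -0.37 and -0.33, within alpha-like cells -0.10 and -0.18, and within duct-like cells -0.02 and 0.06. By ranks (Spearman) the values over all these cells were weaker, at -0.16 and -0.07. They were -0.12 and -0.03 within beta-like, -0.42 and -0.36 within progenitor-like and 0.01 and 0.02 within alpha-like cells, so size and sign depend on the measure. The 12 sums share libraries and totals and are no independent samples, and cells are not replicates, so the correlations are descriptions.

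Other genes of mitochondrial and energy metabolism, in lists set by function, differed little between the libraries. By the same rule 1.94% of all genes were higher and 3.17% lower. Of 8 biogenesis genes (factors that copy and transcribe mitochondrial DNA and their regulators) 0 were past 1.2-fold in either direction, with a median log2 ratio of -0.02, and likewise 0 of 33 assembly factors (0.04), 0 of 17 genes of the TCA cycle (0.01), 0 of 15 of glycolysis (-0.04), 0 of 8 carriers (-0.02), 0 of 75 of the mitochondrial ribosome (0.03) and 0 of 5 electron carrier and further subunit genes (0.08). Of 84 cytosolic ribosome genes 3 were higher (0.05). Of 7 hypoxia-responsive genes 1 was lower, EGLN3, an oxygen-sensing hydroxylase, at 12.7 and 9.69 CPM, with a median of -0.19 over the 7. EGLN3 stood at 2.73 CPM in beta-like, 21.5 CPM in progenitor-like and 23.1 CPM in alpha-like cells. The part of the class mix in its difference between the libraries was not tested. TFAM, which packages and transcribes mitochondrial DNA, stood at 26.9 and 30.4 CPM, a log2 ratio of 0.18.

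Between beta-like and progenitor-like cells the lists were more spread, and their counts stand beside 50.2% of all genes lower and 6.56% higher. Glycolysis genes had a median of -0.60 with 8 of 15 at least 1.5-fold lower, close to the median of all genes, and TCA cycle genes a median of -0.39 with 4 of 17 lower. Of the biogenesis genes 4 of 9 were lower and 1 higher, a smaller share lower than the 50.2% of all genes. The lower ones included POLG, the mitochondrial DNA polymerase, at -1.31, POLRMT, the mitochondrial RNA polymerase, at -0.92 and GABPA at -1.03, and ESRRG, an estrogen-related receptor, was higher at 0.84. NRF1, the other lower one, reached 5 CPM in progenitor-like cells (6.40 CPM) and not in beta-like cells (1.91 CPM), so it was counted only through the class where it is high. TFAM was at 0.21. The mitochondrial ribosome had a median of -0.12 with 4 of 75 lower and 1 higher, the same median as the nuclear members, and assembly factors a median of -0.20 with 2 of 33 lower and 1 higher. Hypoxia-responsive genes had a median of -0.34 with 2 of 7 lower, of which EGLN3 reached 5 CPM in progenitor-like cells alone (2.73 and 21.5 CPM), carriers 0.20 with 1 of 8 lower and 1 higher, and the electron carrier and further subunit genes -0.03 with 0 of 5 past 1.5-fold. Cytosolic ribosome genes stood higher in beta-like cells, with a median of 0.35 and 11 of 83 higher and 1 lower. UCP2, a carrier of the uncoupling protein family, stood at 58.4 CPM in beta-like and 250 CPM in progenitor-like cells, a log2 ratio of -2.10, and SLC25A5, an ADP/ATP carrier, at 510 and 306 CPM, a log2 ratio of 0.74. With mitochondrial and hormone UMIs left out of the total, where 36% of all genes were lower and 9.62% higher, the medians were -0.36 for glycolysis, -0.15 for the TCA cycle, -0.01 for biogenesis, -0.10 for hypoxia, 0.04 for assembly, 0.12 for the mitochondrial ribosome, 0.21 for the electron carrier and further subunit genes, 0.44 for carriers and 0.59 for the cytosolic ribosome. The medians of assembly factors, of the mitochondrial ribosome and of the electron carrier list thus changed sign with the total, and 42 of 83 cytosolic ribosome genes were then higher.

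In delta-like over beta-like cells, where 15.2% of all genes were lower and 11% higher, the mitochondrial ribosome had a median of -0.54 with 33 of 75 lower and 0 higher, and the electron carrier and further subunit genes a median of -0.64 with 4 of 5 lower. TCA cycle genes had a median of -0.26 with 3 of 18 lower, and cytosolic ribosome genes a median of -0.39 with 5 of 83 lower. CYCS, cytochrome c, stood at 206 CPM in beta-like and 136 CPM in delta-like cells, and ESRRG at 14.1 and 35.3 CPM. Assembly factors had a median of -0.43 with 10 of 33 lower, glycolysis genes -0.45 with 4 of 15 lower, carriers -0.55 with 4 of 8 lower and 1 higher, hypoxia-responsive genes 0.20 with 2 of 8 lower and 2 higher, and biogenesis genes 0.07 with 1 of 8 lower and 1 higher. The 2 higher hypoxia-responsive genes, EGLN3 and ANKRD37, and MRPL39, 1 of the 33 lower genes of the mitochondrial ribosome, reached 5 CPM only in the class where they were high. The medians of the hypoxia-responsive and biogenesis lists were above that of all genes (-0.06), and those of the other lists below it. With mitochondrial and hormone UMIs left out of the total, where 7.42% of all genes were lower and 23.8% higher, 2 of 75 genes of the mitochondrial ribosome, 0 of 5 of the electron carrier list, 1 of 33 assembly factors, 2 of 15 glycolysis genes, 1 of 8 carriers, 1 of 18 TCA cycle genes, 1 of 83 cytosolic ribosome genes, 2 of 8 hypoxia-responsive genes and 0 of 8 biogenesis genes were lower. Then 3 of 8 biogenesis genes, 2 of 8 hypoxia-responsive genes, 2 of 18 TCA cycle genes, 1 of 33 assembly factors and 1 of 8 carriers were higher, and 0 of the other lists. PC, 1 of the TCA cycle genes past 1.5-fold, reached 5 CPM in 1 of the classes only. The TCA cycle median was then 0.03, a change of sign, and that of the cytosolic ribosome -0.11.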

How the data were processed

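The authors deposited unnormalized counts of UMIs per gene and barcode on GRCh38, with Cell Ranger 3.0 named in the labels (3.0.2 in the file headers), while bustools 0.40.0 is named in the submitters' processing notes; no transcript compatibility counts were used here. Columns of other samples numbered 0. A barcode needed 1000 UMIs, and Scrublet (scanpy 1.11.5, default settings, per library) removed 7898 of 29703 barcodes (26.6%) and 8340 of 31456 (26.5%). Counts scaled to 10000 per cell were log-transformed, total UMIs and mitochondrial share regressed out, and cells clustered (50 principal components, 3 neighbours in each library, leidenalg 0.10.2, resolution 0.2 and 0.5), with members left out of the variable genes. Classes were named from 14 markers each, taken from the study's lists of these same libraries; a name needed a mean log2 fold of at least 1 and 3 markers past it.

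CPM are UMIs summed over cells per 1000000 UMIs, with exact Poisson intervals, and ratios have exact conditional binomial 95% intervals (scipy 1.17.1). Cells are not replicates and each condition had 1 library, so no test was made. A gene needed 5 CPM in a library or class; past 1.2-fold between libraries, or 1.5-fold in the same direction in both libraries between classes, is a rule of size. The endocrine classes are those of the alpha-like, beta-like, delta-like and beta cell progenitor-like cells. The pseudogene ending of the member rule (P and a number) was applied to nuclear symbols, since it would otherwise drop MT-ATP6 and MT-ATP8. Named were the mitochondrial mRNAs, isoform sets, members on the study's lists, the extremes of each complex between libraries, the 5 highest and 5 lowest nuclear members between beta-like and progenitor-like cells (at least 10 CPM), and the 3 most like the nuclear sum; others named were chosen after their values were seen. Members and lists were chosen with earlier results of these data known. All 104 members matched GENCODE 44 (GRCh38) by Ensembl identifier, the source of positions. Scripts were checked on simulated counts. Other tools were Python 3.11.15, numpy 2.4.6, pandas 2.3.3 and matplotlib 3.10.9.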

Additional observations from a re-analysis of the deposited data

How the results depend on the processing

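Differences between the libraries were small under each alternative run, and none changed direction. The summed mitochondrial mRNAs, at a log2 ratio of 0.126, were at 0.134 with a minimum of 2000 UMIs, 0.123 with none, 0.119 with doublets kept, 0.128 without cells over 20% mitochondrial UMIs, 0.138 without mitochondrial and 0.105 without hormone UMIs in the total, 0.147 with classes weighted equally and 0.133 scaled to the median ratio. The summed nuclear members, at 0.046, were at 0.044 with doublets kept, 0.048 without cells over 20% mitochondrial UMIs, 0.059 without mitochondrial and 0.025 without hormone UMIs, 0.041 with classes weighted equally and 0.053 scaled to the median ratio. The count of nuclear members past 1.2-fold was 1, and 0 without hormone UMIs, since the total alone moves NDUFB1. MT-ND6 and MT-ATP6 passed under 8 of 8 alternatives.

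Sums between beta-like and progenitor-like cells depended on the total. The nuclear members, at -0.085, reversed to 0.170 without hormone UMIs and to 0.503 scaled to the median ratio of all genes (-0.59). They were at -0.088 with a minimum of 2000 UMIs, -0.094 with none, -0.083 with doublets kept, -0.098 without cells over 20% mitochondrial UMIs, -0.123 without mitochondrial UMIs in the total, -0.044 in the NO DOX-labelled and -0.130 in the PLUS DOX-labelled library alone. The mitochondrial mRNAs, at -0.376, reversed to 0.213 scaled to the median ratio and were at -0.121 without hormone UMIs. They were at -0.386 and -0.379 with a minimum of 2000 UMIs and none, -0.370 with doublets kept, -0.325 without cells over 20% mitochondrial UMIs, -0.379 with the members used in clustering, -0.413 without mitochondrial UMIs in the total, -0.374 with Leiden seed 1, and -0.425 and -0.345 in each library alone.

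No paired analysis was possible because each condition has 1 library. The lack of replicates limits every comparison between the libraries.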
